A study of Mus musculus with 20 samples.

Results

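Endothelial cells, which line blood vessels, were compared between the brain and the kidney of young mice. The comparison took the 3 brain and 3 kidney libraries of animals aged 3 months, 6 of the 18 libraries of the series, and joined their read counts by Ensembl gene. Both groups were wild type C57BL/6 mice with no treatment named, so strain, genotype and age were shared. The organ differed, and so did most of the sequencing lanes, as given below. Heart libraries of the same age and the brain and kidney libraries of mice aged 24 months serve as context. Per the labels, minced organs were digested with collagenase, cells carrying CD31 were enriched on magnetic beads, and cells with CD31 but without GP38 or CD45 were then sorted. The gene of CD31, an endothelial marker, is Pecam1. That of GP38, found on fibroblasts and lymphatic endothelium, is Pdpn, and that of CD45, found on leukocytes, is Ptprc. No region or vessel segment was named for either organ, so each library holds arterial, capillary and venous cells in shares that are not known. Whether the libraries of a group are from separate animals is not stated, so the p-values reflect only how these libraries vary, which may be technical.

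Endothelium takes on the tasks of its organ. Brain capillaries form the blood-brain barrier: their cells are sealed by tight junctions, form few vesicles and fenestrae, and admit nutrients through dedicated transporters, a state that depends on Wnt signals through beta-catenin. Kidney endothelium serves filtration and reabsorption in the fenestrated glomerular and peritubular capillaries and in the vasa recta, the straight vessels that pass through the salty medulla.

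Bulk RNA sequencing gave 42161982 to 43581356 counts in genes per brain library and 38189089 to 42083684 per kidney library. Levels are in CPM, the library-scaled count rate after TMM normalisation, and are listed in the order of libraries 1, 2 and 3 of each group. Means carry the standard deviation (SD) over libraries, n = 3. Differences are log2 brain over kidney with a standard error (SE), so a negative value means higher in kidney, and adjusted p is that of the edgeR quasi-likelihood test over all genes tested. A gene is called when its adjusted p is under 0.05. Gene positions are those of the whole gene in GRCm38, and its level sums reads over all of its exons. Libraries of one organ were alike, with correlations of log2 CPM across genes of 0.921 to 0.926 within brain, 0.915 to 0.933 within kidney and 0.726 to 0.762 between the organs.

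Of 15795 genes tested, 3693 (23.4%) were called, 1471 (9.31%) higher in brain and 2222 (14.1%) higher in kidney. These shares are the background for every list below. The 3 libraries of each organ did not overlap for any called gene. Over all genes tested they did not overlap with brain higher for 18.3%, and with kidney higher for 24.1%. Differences on the kidney side were larger: 971 of the 2222 genes higher in kidney passed 16-fold, against 220 of the 1471 genes higher in brain, and 425 against 75 had no count in the other organ. The median log2 difference of all genes tested was -0.032. The sequencing lanes in the labels differ between the organs, with brain on lanes 2, 3 and 2 and kidney on lanes 1, 3 and 4. Lane 3 was the only lane with both organs, 1 library of each, so no test within a lane could be made; as no called gene overlapped between the organs, its sign there follows from the call. With lane as a term in a fit of 5 groups, chosen after seeing the data, 2102 genes were called. Genes named below that lose their call in that fit are given as such.

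**Figure D1:**
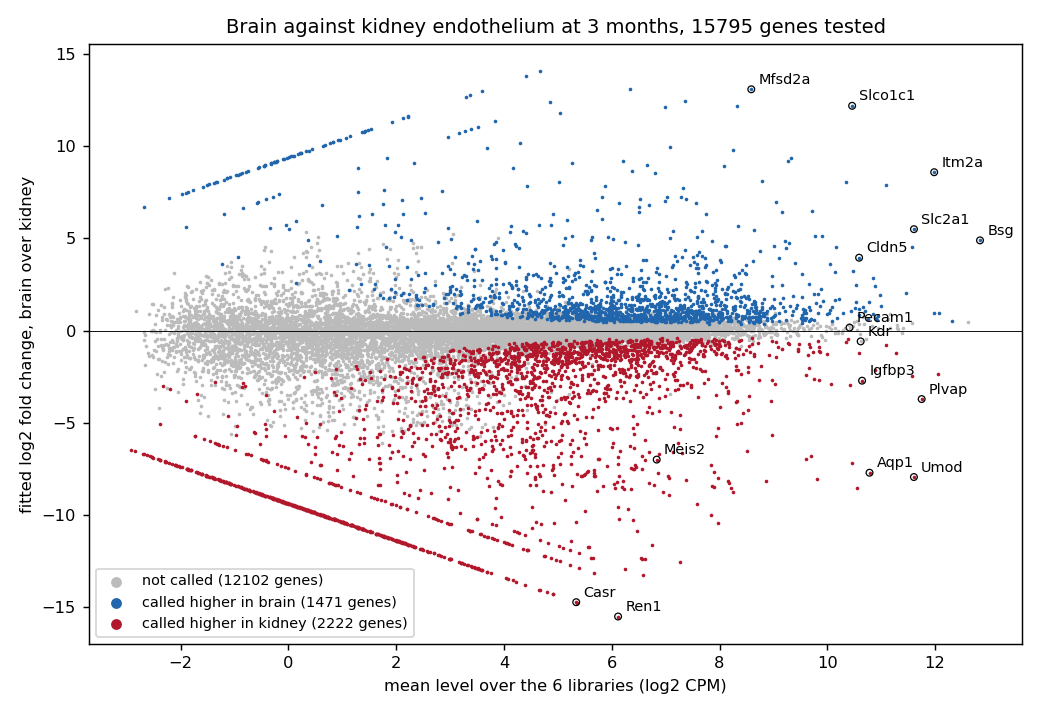
Each point is 1 of 15795 genes, placed by its mean level over the 6 libraries (log2 CPM, horizontal) and its log2 difference, brain over kidney (vertical); colours mark the 1471 genes called higher in brain and the 2222 called higher in kidney, and some genes are labelled. Points on the diagonal lines have no count, or few, in 1 organ, where the fitted value depends on the prior count. The genes higher in kidney reach larger differences than those higher in brain.

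The genes behind the sort were examined first. Pecam1 was at 1622, 1179 and 1519 CPM in brain and 1409.5, 1253 and 1200.04 CPM in kidney. The libraries of the 2 organs overlapped, and the gene was not called (log2 difference 0.16, SE 0.15, adjusted p = 0.52). Cdh5, the endothelial cadherin, was at 187 ± 4.26 CPM in brain and 153 ± 14.7 CPM in kidney (log2 difference 0.29, SE 0.12, adjusted p = 0.157). Pdpn was at 0, 0 and 0.319 CPM in brain and 1.21, 2.58 and 0.568 CPM in kidney, and Ptprc at 0.747, 0 and 7.24 CPM in brain and 11.4, 5.06 and 3.91 CPM in kidney. Both stayed near 0 beside Pecam1, and neither was called (adjusted p = 0.197 and 0.62). Without brain library 3, Pdpn was called higher in kidney (log2 -8.93, adjusted p = 0.0303). Of 24 genes shared by endothelia, 11 were higher in brain and 2 in kidney, with a median log2 difference of 0.46. The count higher in brain was 7 without kidney library 2 and 7 without kidney library 3. The summed level of the list was 22580, 21420 and 23560 CPM in brain and 15280, 14910 and 13820 CPM in kidney, with every brain library above every kidney library. The list includes Cldn5 and Flt1, which were both much higher in brain, with values given below. Much of the gap between the sums lies in those genes, while Pecam1 and Cdh5, also listed, were not called. Fewer cells of a type and less RNA per cell cannot be told apart in bulk samples.

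Flt1, a VEGF receptor that binds ligand with little signal, gave one of the wider differences among these shared genes, at 3292, 2649 and 3589 CPM in brain and 641, 539.7 and 629.6 CPM in kidney (log2 difference 2.40, SE 0.15, adjusted p = 0.000118). Vwf, the carrier of clotting factor VIII and a marker of larger vessels, was at 625, 442 and 574 CPM in brain and 103, 63.6 and 35.7 CPM in kidney. All brain libraries lay above all kidney libraries for both genes. Emcn, endomucin, a surface glycoprotein of capillaries and veins, went the other way, at 487, 648 and 597 CPM in brain and 1279, 1386 and 1167 CPM in kidney (log2 difference -1.14, SE 0.14, adjusted p = 0.00189). Mmrn2, a matrix glycoprotein of endothelium, was likewise higher in kidney (log2 difference -0.73, SE 0.15, adjusted p = 0.0118). Tie1, an orphan receptor of endothelium, was not called (adjusted p = 0.632).

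Transcripts of other kidney cells were abundant in the kidney libraries. Of 24 genes of the loop of Henle, distal tubule and collecting duct, 23 were higher in kidney and 0 in brain. Their summed level was 23.1, 24 and 199 CPM in brain and 17040, 18740 and 18000 CPM in kidney. Umod, uromodulin, the main protein that the thick ascending limb secretes into urine, was at 4.41, 2.55 and 69.004 CPM in brain and 5316, 6214 and 7113 CPM in kidney. Brain library 3 stood apart from the other brain libraries for Umod and for the list sum, though far below every kidney library. Slc4a1, the anion exchanger of acid-secreting collecting duct cells and of red cells, was at 0.0258, 0.0721 and 0 CPM in brain and 320.5, 133 and 133 CPM in kidney (log2 difference -12.41, SE 0.75, adjusted p = 0.000106). Cdh1, epithelial cadherin, was at 0, 0.144 and 0 CPM in brain and 336, 336 and 256 CPM in kidney (log2 difference -12.53, SE 0.65, adjusted p = 6.37e-05). Of 18 proximal tubule genes, 15 were higher in kidney, and they summed to 17.8, 8.83 and 40.6 CPM in brain and 1149, 880.5 and 1028 CPM in kidney. With the lane term these counts were 13 for the loop, distal and collecting duct list and 4 for the proximal list, and Umod was not called (log2 -5.61, adjusted p = 0.181). The part of tubule transcript in the differences between the organs was not tested for the lists below, and its sum is the measure to set beside each gene higher in kidney.

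Transcripts of cells around the vessels were higher on the brain side. Of 14 genes of pericytes and smooth muscle, the contractile cells around vessels, 10 were higher in brain and 0 in kidney, and their sum was 2055, 1903 and 2142 CPM in brain and 546, 633 and 719 CPM in kidney. The count was 5 without kidney library 3 and 6 with the lane term. Acta2, smooth muscle actin, was at 646, 455 and 415 CPM in brain and 99.8, 121 and 135 CPM in kidney (log2 difference 2.09, SE 0.21, adjusted p = 0.000841). Rgs5, a regulator of G protein signals typical of pericytes, was at 333, 444 and 495 CPM in brain and 77.7, 135 and 176 CPM in kidney (log2 difference 1.71, SE 0.32, adjusted p = 0.00878). No kidney library reached the lowest brain library for either gene. Haemoglobin genes were also higher in brain, with Hbb-bs at 328, 353 and 432 CPM in brain and 12.6, 7.77 and 12.5 CPM in kidney (log2 difference 5.08, SE 0.26, adjusted p = 6.34e-05); reads of the near-identical Hba-a1 and Hba-a2 cannot be assigned with certainty, so those are given here by name only. Of 9 astrocyte genes tested, Ntsr2 was higher in brain, and Aldh1l1 and Aldoc were higher in kidney. With the lane term Ntsr2 and Aldoc were not called (adjusted p = 0.135 and 0.852). Both also lost their calls with all 6 groups fitted together (adjusted p = 0.0546 and 0.268). The list summed to 331, 306 and 329 CPM in brain and 728, 593 and 568 CPM in kidney, more in every kidney library than in any brain library. Its defining gene Gfap was at 0, 5.15 and 2.50 CPM in brain and 0, 0.501 and 0.415 CPM in kidney and was not called (adjusted p = 0.364). The microglial list summed to 63.99, 81.4 and 55.1 CPM in brain and 143, 119.7 and 107 CPM in kidney. Its members did not follow the sum: of 10 tested, 2 were higher in brain and 2 in kidney, with a median log2 difference of 0.18. The count higher in brain was 0 with the lane term. P2ry12, Trem2 and Siglech of that list had no count in kidney, and Siglech had too few counts to be tested. Kl and Aqp1 of the choroid plexus list are also tubule or capillary genes, and Podxl of the podocyte list is an endothelial gene, so the high sums of those lists do not point to 1 cell type. The leukocyte list summed to 75.2, 42.4 and 61.7 CPM in brain and 39.99, 24.8 and 24 CPM in kidney. The part of these cells in the differences was not tested.

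**Figure D2:**
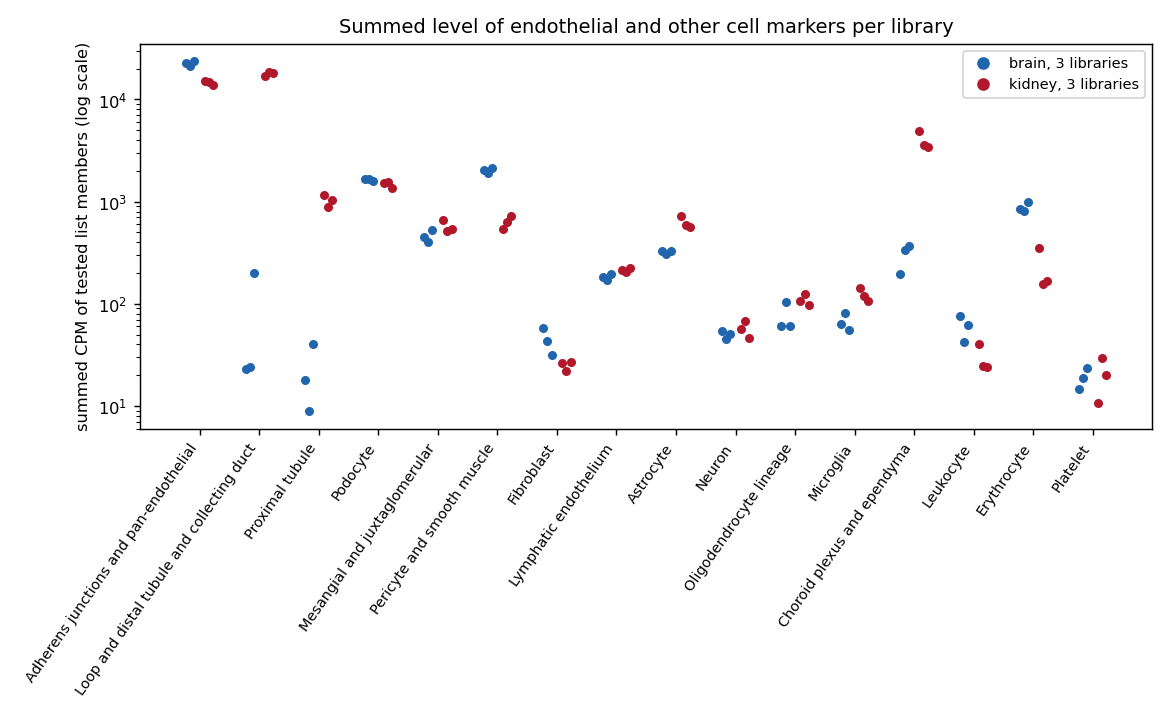
Summed CPM of the shared endothelial list and of the marker lists of other cells (log axis), 1 point per library, brain and kidney in separate colours. The 3 kidney libraries sit between 17040 and 18740 CPM for the loop, distal tubule and collecting duct list, and the brain libraries between 23.1 and 199 CPM, with brain library 3 highest of them.

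Nutrient and hormone transporters of the barrier set the brain apart. Of 28 genes listed, 26 were tested; Slc13a4 had too few counts and Mfsd7c had no entry under that symbol. Among the 26, 24 were higher in brain and 0 in kidney, with a median log2 difference of 4.45. The list was assembled from what is known of this barrier, so its direction is no independent evidence. Slc2a1 (chr4:119108711-119137983), the glucose transporter GLUT1, was at 8771, 4983 and 4572 CPM in brain and 146, 139.7 and 121 CPM in kidney. Brain library 1 was the highest, and every brain library exceeded every kidney library by a wide margin (log2 difference 5.49, SE 0.31, adjusted p = 8.08e-05). Per kilobase of exon, the level of Slc2a1 in brain was 1742 CPM, above those of Slc7a5 (696), Slco1a4 (676), Slco1c1 (543) and Mfsd2a (342).

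Amino acid carriers followed. Slc7a5, the large neutral amino acid transporter LAT1, was at 3027, 2284 and 2435 CPM in brain and 7.17, 12.2 and 10.2 CPM in kidney (log2 difference 8.03, SE 0.29, adjusted p = 4.42e-05). Its partner subunit Slc3a2 was abundant in both organs, at 1491, 1393 and 1281 CPM in brain and 340.2, 385 and 314 CPM in kidney, and differed less (log2 difference 2.003, SE 0.13, adjusted p = 0.000123). The libraries did not overlap for either gene. Slc7a1, which takes up arginine and lysine, was at 241, 315 and 276 CPM in brain and 26.3, 18.4 and 16.96 CPM in kidney (log2 difference 3.76, SE 0.23, adjusted p = 0.000105). Slc38a3, which carries glutamine, was at 540.04 ± 111 CPM in brain and 1.13 ± 0.902 CPM in kidney. Slc38a5, a related carrier, was at 639 ± 163 CPM in brain and 0.142 ± 0.246 CPM in kidney, and was listed at 0 in kidney libraries 1 and 3. Slc1a1, a glutamate transporter, was at 353, 223 and 243 CPM in brain and 14.5, 18.2 and 17.6 CPM in kidney (log2 difference 4.03, SE 0.23, adjusted p = 9.40e-05).

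Carriers of fuels, hormones and vitamins had some of the largest differences. Slc16a1, the monocarboxylate transporter for lactate and ketones, was at 1152, 1945 and 1869 CPM in brain and 15.7, 25.04 and 15.5 CPM in kidney (log2 difference 6.47, SE 0.34, adjusted p = 6.77e-05). Bsg (chr10:79704491-79711969), basigin, which brings that transporter to the membrane, took more counts than any other gene with a 4-fold or larger difference, at 14180.1, 15497 and 12700.2 CPM in brain and 507, 492 and 433 CPM in kidney (log2 difference 4.89, SE 0.13, adjusted p = 2.77e-05). Slco1c1, which carries thyroid hormone, was at 2769, 2936 and 2749.8 CPM in brain and 0, 1.85 and 0.0219 CPM in kidney, where kidney library 2 held nearly all of the kidney reads (log2 difference 12.18, SE 1.46, adjusted p = 0.00157). Slco1a4, an organic anion carrier, was at 3653, 4439.5 and 4924 CPM in brain and 13.8, 13.5 and 26.9 CPM in kidney; it belongs to a family of similar genes whose reads may be shared. Slc22a8, another organic anion carrier, was at 969.7, 1469 and 1406 CPM in brain and 3.06, 2.66 and 0.153 CPM in kidney (log2 difference 9.36, SE 0.99, adjusted p = 0.000982). Mfsd2a, the carrier of the lipid that holds docosahexaenoic acid (chr4:122946850-122961188), was at 807, 811 and 693 CPM in brain and 0, 0.276 and 0 CPM in kidney (log2 difference 13.07, SE 0.81, adjusted p = 0.000112). Only kidney library 2 had any Mfsd2a count. Slc19a3, the thiamine transporter, was at 309, 321 and 325 CPM in brain and 1.58, 1.48 and 1.42 CPM in kidney (log2 difference 7.73, SE 0.15, adjusted p = 7.86e-06). It varied little among the libraries of either organ.

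Metal handling belonged to the same group. Tfrc, the transferrin receptor, which takes up iron, was at 495, 814 and 882 CPM in brain and 61.5, 58.7 and 41.6 CPM in kidney (log2 difference 3.76, SE 0.28, adjusted p = 0.000244). Slc40a1, ferroportin, which exports iron, was at 803, 1380.4 and 1266 CPM in brain and 40.4, 39.5 and 37.8 CPM in kidney (log2 difference 4.87, SE 0.24, adjusted p = 6.22e-05). The zinc carriers Slc39a8 and Slc39a10, which import, and Slc30a1, which exports, had log2 differences of 3.38, 3.05 and 3.45. Slc6a6, the taurine transporter, was plentiful in both organs, at 1424, 2049 and 1985 CPM in brain and 482, 665 and 506 CPM in kidney (log2 difference 1.72, SE 0.20, adjusted p = 0.00129). The 2 tested transporters that were not called were Slc6a8 and Slc7a3, and the latter was at 9.92, 28.4 and 9.95 CPM in brain and 0, 1.30 and 0 CPM in kidney (log2 difference 5.22, SE 1.74, adjusted p = 0.0771). Without kidney library 2, the only kidney library with Slc7a3 counts, it was called (log2 12.40, adjusted p = 0.00865). Pericyte and smooth muscle transcript moved in the same direction as these genes, with a mean sum of 2033 ± 121 CPM in brain and 632.8 ± 86.8 CPM in kidney.

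Most of the efflux pumps called were higher in brain. Abcb1a, P-glycoprotein, which returns drugs to the blood, was at 789, 813 and 1052 CPM in brain and 1.996, 3.41 and 4.28 CPM in kidney (log2 difference 8.10, SE 0.36, adjusted p = 5.17e-05). Reads may be split between it and its close copy Abcb1b. Abcg2, the breast cancer resistance protein, was higher in brain but well expressed in kidney, at 1442, 1375 and 1309.9 CPM in brain and 279, 213 and 229 CPM in kidney (log2 difference 2.52, SE 0.14, adjusted p = 7.86e-05). Abcc4 was at 476 ± 85.6 CPM in brain and 92.7 ± 4.99 CPM in kidney (log2 difference 2.36, SE 0.17, adjusted p = 0.00019). Abcc1 had the opposite direction, at 6.80, 8.49 and 16.9 CPM in brain and 42.8, 54.8 and 50.4 CPM in kidney (log2 difference -2.20, SE 0.37, adjusted p = 0.00599). Its libraries did not overlap either. Of 10 pumps, 4 were higher in brain and 1 in kidney, with a median log2 difference of 0.22. Abcc6 was among the former, and it was not called with the lane term (adjusted p = 0.296).

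Tight junction genes did not move as one. Of 19 tested, 8 were higher in brain and 6 in kidney, with a median log2 difference of -0.24. Cldn5, the main claudin of brain endothelium, was at 2826, 3104 and 2758 CPM in brain and 194, 213 and 155 CPM in kidney (log2 difference 3.95, SE 0.16, adjusted p = 4.59e-05). Ocln, occludin, was at 1014, 1102 and 966 CPM in brain and 67.3, 69.6 and 66.5 CPM in kidney (log2 difference 3.92, SE 0.12, adjusted p = 3.01e-05), and Lsr, angulin-1 of tricellular contacts, at 470.05, 356 and 321 CPM in brain and 24.2, 25.7 and 21.2 CPM in kidney (log2 difference 4.01, SE 0.20, adjusted p = 6.22e-05). Each of these had non-overlapping libraries. Tjp1, the scaffold ZO-1, differed less, at 526, 413 and 537 CPM in brain and 156, 151 and 130.2 CPM in kidney (log2 difference 1.75, SE 0.15, adjusted p = 0.000424). Among junction adhesion molecules, Jam2 was higher in brain, at 833, 860.03 and 781 CPM in brain and 344, 371 and 301 CPM in kidney (log2 difference 1.28, SE 0.12, adjusted p = 0.00063), Jam3 was higher in kidney, at 23.6, 35.3 and 42.6 CPM in brain and 86.96, 162 and 167 CPM in kidney (log2 difference -2.04, SE 0.33, adjusted p = 0.00513), and F11r was not called (adjusted p = 0.273).

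Cldn15, a claudin that forms cation pores, was among those higher in kidney, at 2.55, 2.24 and 4.003 CPM in brain and 311, 264 and 259 CPM in kidney (log2 difference -6.57, SE 0.29, adjusted p = 4.96e-05). Tjp3, the scaffold ZO-3, was at 0.825, 0.024 and 0.442 CPM in brain and 19.2, 40.2 and 42.5 CPM in kidney (log2 difference -6.30, SE 0.94, adjusted p = 0.00381). The 3 others higher in kidney beside Jam3, namely Cldn3, Marveld3 and Cgn, are also known from epithelium and were not called with the lane term (adjusted p = 0.781, 0.0894 and 0.527). Marveld3 was at 0, 0 and 0 CPM in brain and 16.5, 9.95 and 7.56 CPM in kidney. The tubule gene sums, 17930 ± 853 CPM in kidney and 82.1 ± 102 CPM in brain, moved in the same direction, and their part was not tested. In heart, scaled separately, Cldn15 was at 32.8 CPM, Tjp3 was listed at 0 and Ocln was at 6.62 CPM.

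**Figure D3:**
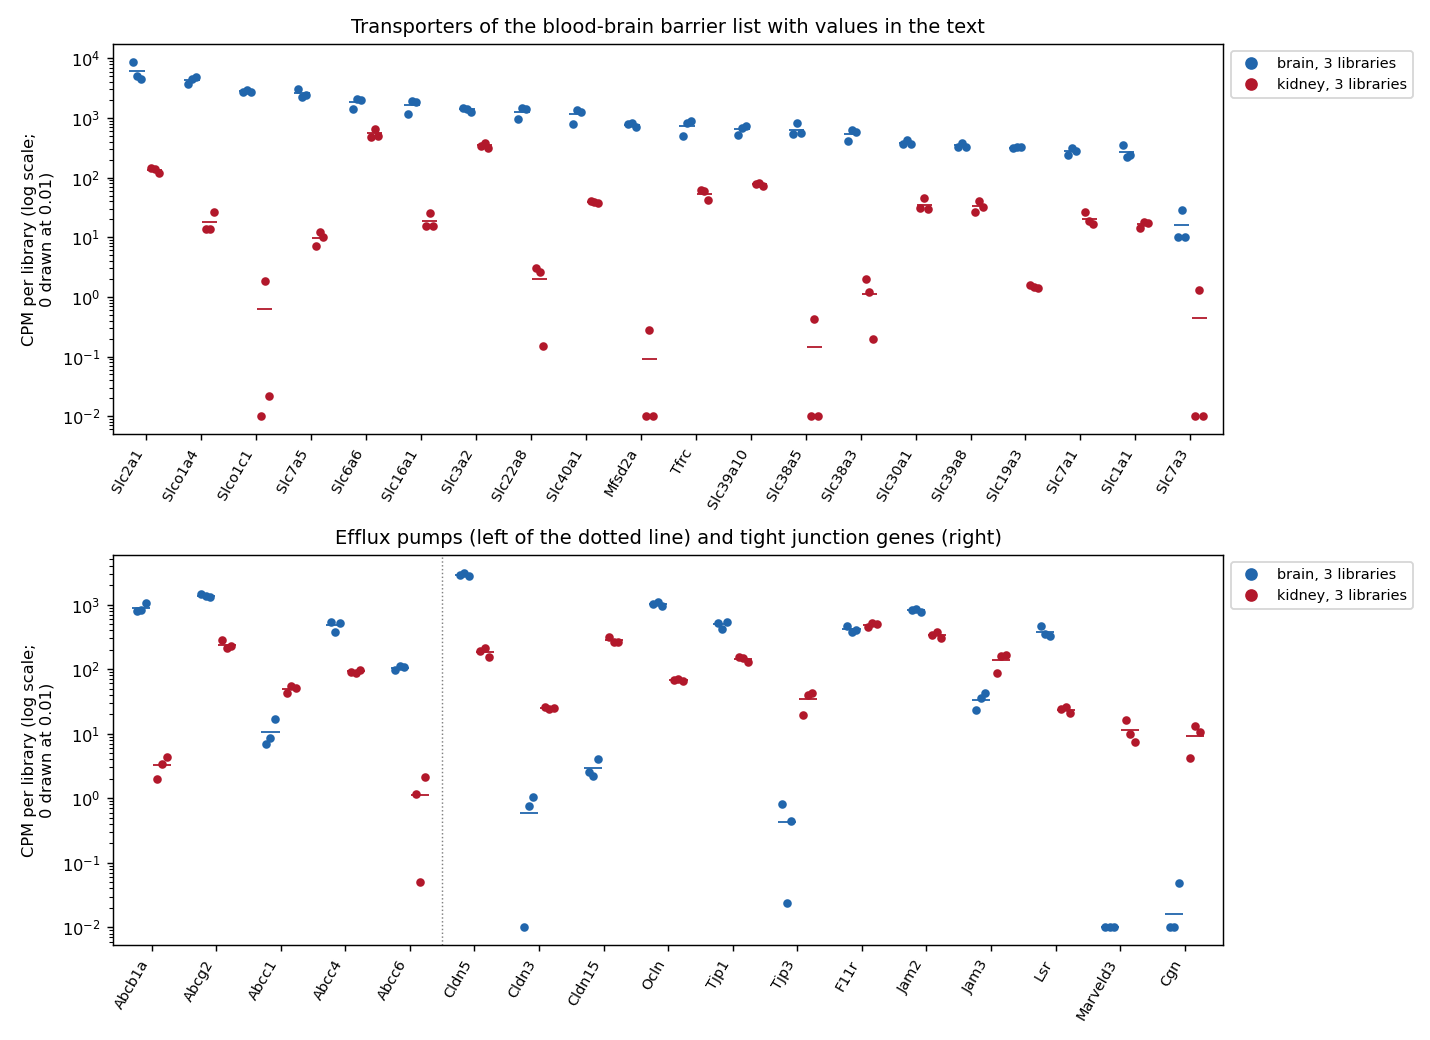
CPM per library (log axis, 0 drawn at 0.01) for the transporter genes of the barrier that the text gives values for, and for efflux pumps and tight junction genes likewise, with brain and kidney libraries in separate colours. In the transporter panel the brain points lie above the kidney points for every called gene drawn; in the other panel some genes, such as Abcc1, Jam3 and Cldn15, have the opposite order.

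Enzymes of the barrier were called more often higher in brain than in kidney. Of 20 genes tested, 9 were higher in brain and 2 in kidney, with a median log2 difference of 0.29. Car4, a membrane carbonic anhydrase, was at 1137, 1318 and 1014 CPM in brain and 41.9, 59.1 and 53.5 CPM in kidney (log2 difference 4.49, SE 0.20, adjusted p = 4.96e-05). Maoa, which oxidises monoamines, was at 401, 514 and 526 CPM in brain and 37.7, 35.5 and 27.4 CPM in kidney (log2 difference 3.84, SE 0.20, adjusted p = 6.34e-05). Gsta4, a glutathione transferase that handles lipid aldehydes, was at 186, 251 and 192 CPM in brain and 15.4, 24.4 and 19.9 CPM in kidney (log2 difference 3.40, SE 0.23, adjusted p = 0.000154). All brain libraries exceeded all kidney libraries for these 3 genes. Ddc, the decarboxylase that makes dopamine, was at 132, 268 and 267 CPM in brain and 0.163, 0.226 and 1.33 CPM in kidney (log2 difference 8.56, SE 0.84, adjusted p = 0.000698). Ggt1 and Enpep, a transpeptidase and an aminopeptidase also found on the proximal tubule brush border, were higher in kidney, with Ggt1 at 5.71 ± 1.32 CPM in brain and 101 ± 19.1 CPM in kidney. Enpep was at 31.02 ± 3.47 CPM in brain and 162 ± 9.09 CPM in kidney. Both were not called with the lane term (adjusted p = 0.0623 and 0.0545).

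Caveolae, the flask-shaped pits that give rise to vesicles, did not follow a single direction. Of 17 genes of caveolae and vesicle transport, 5 were higher in brain and 4 in kidney, with a median log2 difference of 0.26; the former count was 3 without kidney library 1 and 8 with DESeq2. Plvap (chr8:71497765-71511752), which forms the diaphragms of fenestrae and vesicles, was at 272, 502 and 690.2 CPM in brain and 5990.1, 6269.8 and 6959.9 CPM in kidney (log2 difference -3.71, SE 0.34, adjusted p = 0.000526). The kidney libraries stood far above the brain libraries, while Plvap in heart was at 130.3 CPM. Ehd4, a membrane remodelling ATPase, was at 375, 259.5 and 312 CPM in brain and 1129, 1411 and 1357 CPM in kidney (log2 difference -2.04, SE 0.17, adjusted p = 0.000385). The coat gene Cavin1 was higher in brain, at 628, 653 and 509.6 CPM in brain and 189, 254 and 177 CPM in kidney (log2 difference 1.53, SE 0.18, adjusted p = 0.00157). Its partner Cavin2 was higher in brain too, at 1178, 831 and 1025 CPM in brain and 498, 553 and 476 CPM in kidney (log2 difference 0.99, SE 0.15, adjusted p = 0.0046). Cav1, caveolin-1, was at 823, 1149 and 1031 CPM in brain and 522, 644 and 391 CPM in kidney (log2 difference 0.95, SE 0.21, adjusted p = 0.0194). Its call was lost without brain library 2 or 3 or kidney library 1 (adjusted p = 0.0538 to 0.0644). Pacsin2, which shapes caveolar necks, was higher in kidney (log2 difference -0.75, SE 0.15, adjusted p = 0.0123).

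Wnt signalling genes included many that are switched on by beta-catenin. Stretches of 4 promoters, of Wnt genes and barrier transporters that were higher in brain, are shown first because they hold the 8-base sequence CTTTGATC or its reverse complement GATCAAAG, which matches the preferred site of the TCF and LEF factors that beta-catenin acts through. The sequences come from RefSeq (GRCm38.p6), read 5′ to 3′ on the strand of the gene up to the base before the annotated start, with the match in capitals. Slc19a3 lies at chr1:83038449-83038578 on the minus strand, with the match starting 84 bases before the start. Slc7a1 lies at chr5:148392816-148392945, minus strand, 49 bases before. Sp5 lies at chr2:70474793-70474922, plus strand, 104 bases before. Tnfrsf19 lies at chr14:61037988-61038217, minus strand, 203 bases before. The start used for Slc7a1 lies inside the whole gene (chr5:148327410-148399904, minus strand) and is not its outermost start.
Slc19a3: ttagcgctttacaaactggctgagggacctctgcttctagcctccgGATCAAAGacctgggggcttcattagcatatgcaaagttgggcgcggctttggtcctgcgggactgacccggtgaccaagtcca
Slc7a1: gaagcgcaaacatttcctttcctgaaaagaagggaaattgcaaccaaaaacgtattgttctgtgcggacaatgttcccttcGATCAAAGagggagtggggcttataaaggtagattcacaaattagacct
Sp5: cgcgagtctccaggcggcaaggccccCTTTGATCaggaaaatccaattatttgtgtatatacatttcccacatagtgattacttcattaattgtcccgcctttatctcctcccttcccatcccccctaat
Tnfrsf19: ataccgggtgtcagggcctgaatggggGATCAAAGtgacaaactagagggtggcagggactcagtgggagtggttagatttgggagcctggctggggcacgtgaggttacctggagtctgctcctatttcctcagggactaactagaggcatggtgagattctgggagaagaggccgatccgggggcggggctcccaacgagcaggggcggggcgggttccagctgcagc
Over all 32851 promoter windows of 300 bases, 250 before to 50 after the start, 308 (0.938%) held either form. Counted by gene, 294 of 27025 genes with a window (1.09%) held a match. The share was 0.902% of 10977 tested genes with a window, 1.37% of 1094 higher in brain and 0.685% of 1605 higher in kidney. In the Wnt list 2 of 16 genes with a window held a match, and in the transporter list 2 of 20. A match is a description of letters and not a site.

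Of 27 Wnt genes tested, 14 were higher in brain and 6 in kidney, with a median log2 difference of 1.19. The count higher in brain was 9 with the lane term. Among receptor parts, Adgra2, which with Reck receives Wnt7 ligands at brain vessels, was at 171, 183 and 160.4 CPM in brain and 32.9, 34.5 and 16.4 CPM in kidney (log2 difference 2.62, SE 0.30, adjusted p = 0.00125). Reck was at 311, 259.9 and 323 CPM in brain and 83.6, 65.3 and 61.6 CPM in kidney (log2 difference 2.09, SE 0.17, adjusted p = 0.000337). Fzd6 was at 504, 585 and 555 CPM in brain and 121, 123 and 102 CPM in kidney (log2 difference 2.25, SE 0.13, adjusted p = 0.0001). The libraries of the organs did not overlap for these 3 genes. Fzd4, the receptor for norrin, was not called (adjusted p = 0.0876), nor were the co-receptors Lrp5 and Lrp6 (adjusted p = 0.665 and 0.161). Ctnnb1, beta-catenin itself, was at 1287, 1529 and 1534 CPM in brain and 723, 707 and 607 CPM in kidney (log2 difference 1.09, SE 0.13, adjusted p = 0.00139).

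The nuclear partners and targets of beta-catenin differed more. Tcf7 was at 274, 258 and 297 CPM in brain and 8.68, 4.31 and 6.38 CPM in kidney (log2 difference 5.42, SE 0.29, adjusted p = 7.34e-05). Lef1 was at 531, 604 and 648 CPM in brain and 77.3, 70.5 and 53.7 CPM in kidney (log2 difference 3.15, SE 0.18, adjusted p = 9.36e-05), though not called with the lane term (log2 2.14, adjusted p = 0.374). Of the feedback inhibitors that the pathway induces, Apcdd1 was at 863, 1176 and 1117 CPM in brain and 11.9, 8.60 and 5.09 CPM in kidney (log2 difference 6.95, SE 0.38, adjusted p = 7.76e-05), Nkd1 at 380.3, 515 and 454 CPM in brain and 12.9, 20.02 and 13.9 CPM in kidney (log2 difference 4.85, SE 0.24, adjusted p = 6.22e-05) and Axin2 at 18.7, 28.4 and 30.2 CPM in brain and 1.58, 1.63 and 2.12 CPM in kidney (log2 difference 3.86, SE 0.31, adjusted p = 0.000313). No kidney library came near the brain libraries for these genes. Notum, which inactivates Wnt ligands, was at 122, 152 and 146 CPM in brain and 2.09, 0.677 and 0.677 CPM in kidney (log2 difference 6.93, SE 0.51, adjusted p = 0.000223). Tnfrsf19, a receptor of the TNF family, was at 214, 392 and 477 CPM in brain and 20.1, 26.5 and 15.9 CPM in kidney (log2 difference 4.11, SE 0.37, adjusted p = 0.000453) and was not called with the lane term (adjusted p = 0.114). Sp5, a transcription factor induced by Wnt, was at 10.3, 20.7 and 9.53 CPM in brain and 4.85, 3.43 and 1.88 CPM in kidney (log2 difference 1.99, SE 0.50, adjusted p = 0.0285). Its call was lost without brain library 2 or kidney library 2 or 3 (adjusted p = 0.075 to 0.0944), with the lane term (adjusted p = 0.212) and with all 6 groups fitted together (adjusted p = 0.213).

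Secreted antagonists were among the genes higher in kidney. Sfrp1, which binds Wnt ligands, was at 0.747, 0.12 and 2.26 CPM in brain and 152, 204 and 209 CPM in kidney (log2 difference -7.49, SE 0.86, adjusted p = 0.00131). Dkk2, which blocks the Wnt co-receptors and is listed among glomerular endothelial genes, was at 4.07, 5.89 and 9.23 CPM in brain and 146, 157 and 179.8 CPM in kidney (log2 difference -4.65, SE 0.33, adjusted p = 0.000194); with the lane term its adjusted p was 0.065. The libraries did not overlap. Rnf43, which removes frizzled receptors, was listed at 0 in all brain libraries and at 8.90 ± 3.76 CPM in kidney, and was not called with the lane term (adjusted p = 0.147). Tcf7l2, Tspan12 and Ccnd1 were the other 3 higher in kidney. Each of them lost its call in at least 1 of the alternative fits. Tcf7l2 lost it with the lane term (adjusted p = 0.0581). Tspan12 lost it without brain library 1 or 3 or kidney library 1, 2 or 3 (adjusted p = 0.0531 to 0.136). With no low-count filter Tspan12 was not called either (adjusted p = 0.0524). Ccnd1 lost it without brain library 2 or 3 or kidney library 2 or 3 (adjusted p = 0.0953 to 0.118). With the lane term Ccnd1 was not called either (adjusted p = 0.0735).

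Transcription factors listed for brain endothelium were mostly higher in brain. Of 15 tested, 9 were higher in brain and 1 in kidney, with a median log2 difference of 3.15. Foxf2, a forkhead factor needed in cerebral vessels, was at 297, 369 and 315 CPM in brain and 0, 0.175 and 0 CPM in kidney (log2 difference 12.47, SE 0.70, adjusted p = 7.97e-05). Foxc1, another forkhead factor, was at 395, 494 and 444 CPM in brain and 49.4, 45.5 and 42.4 CPM in kidney (log2 difference 3.28, SE 0.15, adjusted p = 5.17e-05). Foxf1 was at 157, 172 and 166 CPM in brain and 0.998, 0.201 and 0.0219 CPM in kidney (log2 difference 8.66, SE 0.87, adjusted p = 0.000755). All brain libraries lay above all kidney libraries, and in heart the level was 0.0918 CPM for Foxf2, 78.6 for Foxc1 and 5.92 for Foxf1.

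Zic5 (chr14:122456795-122465677), a zinc finger factor known from neural development, was at 41.1, 57.5 and 54.4 CPM in brain and 0, 0 and 0 CPM in kidney. Zic5 had 6197 counts in brain and 0 in kidney, at least 2187-fold higher in brain when kidney is set to 3 counts over its libraries, the limit that a count of 0 allows, which covers counting error only. Tbx1, a T-box factor, was at 199.9, 193 and 211 CPM in brain and 1.09, 0.1 and 0 CPM in kidney (log2 difference 8.98, SE 1.04, adjusted p = 0.00135), and its call was lost with the lane term (adjusted p = 0.112). Tbx4 (chr11:85886422-85916097) was at 20.98, 29.96 and 21.1 CPM in brain and 0, 0 and 0 CPM in kidney, at least 1031-fold higher in brain. Foxq1 was at 399.8, 604 and 581 CPM in brain and 16.6, 31.5 and 17.2 CPM in kidney (log2 difference 4.60, SE 0.34, adjusted p = 0.000223), and was not called with the lane term (log2 3.01, adjusted p = 0.179). Foxp1 was higher in brain by less (log2 difference 1.56, SE 0.18, adjusted p = 0.00145). Sox17, an arterial and barrier factor, was at 974, 974 and 839.6 CPM in brain and 848, 766 and 684 CPM in kidney and was not called (adjusted p = 0.182). Bcl6b, the member higher in kidney, was at 77.98 ± 4.12 CPM in brain and 118 ± 12.1 CPM in kidney, and its call was lost without brain library 1 or 2 or kidney library 1 or 3 (adjusted p = 0.0562 to 0.0658) and with the lane term (adjusted p = 0.0523).

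Factors listed for kidney endothelium were more often higher in kidney. Of 19 tested, 10 were higher there and 2 in brain, with a median log2 difference of -1.86. Meis2, a partner of Hox proteins, was at 0.876, 1.61 and 2.82 CPM in brain and 197, 236 and 246 CPM in kidney (log2 difference -6.99, SE 0.45, adjusted p = 0.000129). Gata3 was at 0.0258, 0.289 and 0.491 CPM in brain and 43.1, 54.6 and 36.3 CPM in kidney (log2 difference -7.35, SE 0.73, adjusted p = 0.000721). Irx3, an Iroquois factor, was at 20.7, 18.1 and 17.6 CPM in brain and 115, 115 and 161 CPM in kidney (log2 difference -2.80, SE 0.19, adjusted p = 0.00016), Tbx2 at 25.7, 44.995 and 35.4 CPM in brain and 112, 135 and 137 CPM in kidney (log2 difference -1.86, SE 0.23, adjusted p = 0.00175) and Irf8 at 2.37, 2.77 and 4.94 CPM in brain and 39.4, 40.8 and 39.2 CPM in kidney (log2 difference -3.57, SE 0.33, adjusted p = 0.000532). The organs did not overlap for any of these. In heart, Meis2 was at 11.4 CPM, Irx3 at 13.002, Tbx2 at 93.3 and Irf8 at 40.2. Pou3f3 was at 0, 0.24 and 0.0491 CPM in brain and 21.7, 24.2 and 31.1 CPM in kidney, and was not called with the lane term (adjusted p = 0.1). Meis2, Gata3 and Irx3 are also known from kidney epithelium or stroma, and the part of those cells was not tested.

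Hox genes, which record position along the body axis, were nearly absent from brain. Of 39 listed, 26 had enough counts to be tested, and all 26 were called higher in kidney. The 9 of paralogue groups 1 to 5 had a median log2 difference of -8.34, and the 17 of groups 6 to 13 one of -8.31. A Hox gene near 0 in brain could be tested only through its kidney counts, so the count is a description of these members. By cluster, 8 genes lay in the A cluster (chromosome 6), 8 in B (chromosome 11), 4 in C (chromosome 15) and 6 in D (chromosome 2). Their summed level was 1.01, 0.986 and 7.37 CPM in brain and 603, 692 and 627 CPM in kidney. Brain library 3 was again the highest of the brain libraries. The loop, distal tubule and collecting duct list moved likewise, with 82.1 ± 102 CPM in brain and 17930 ± 853 CPM in kidney. The part of tubule cells in the Hox levels was not tested. Hoxd8 held the most counts, at 0.103, 0.0962 and 3.04 CPM in brain and 172, 202 and 140.2 CPM in kidney (log2 difference -7.30, SE 1.21, adjusted p = 0.00585). Hoxd9 was at 0.644, 0 and 0 CPM in brain and 62.3, 77.02 and 61.5 CPM in kidney (log2 difference -8.30, SE 1.14, adjusted p = 0.00274) and Hoxb6 at 0, 0.024 and 0.368 CPM in brain and 55.4, 59.8 and 61.3 CPM in kidney (log2 difference -8.77, SE 0.90, adjusted p = 0.000839). Each kidney library carried every cluster. In heart, Hoxd8 was at 2.73 CPM and Hoxb6 at 0.423 CPM. The count of groups 1 to 5 was 4 without kidney library 3 and 5 with the lane term, and that of groups 6 to 13 was 6 with the lane term.

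**Figure D4:**
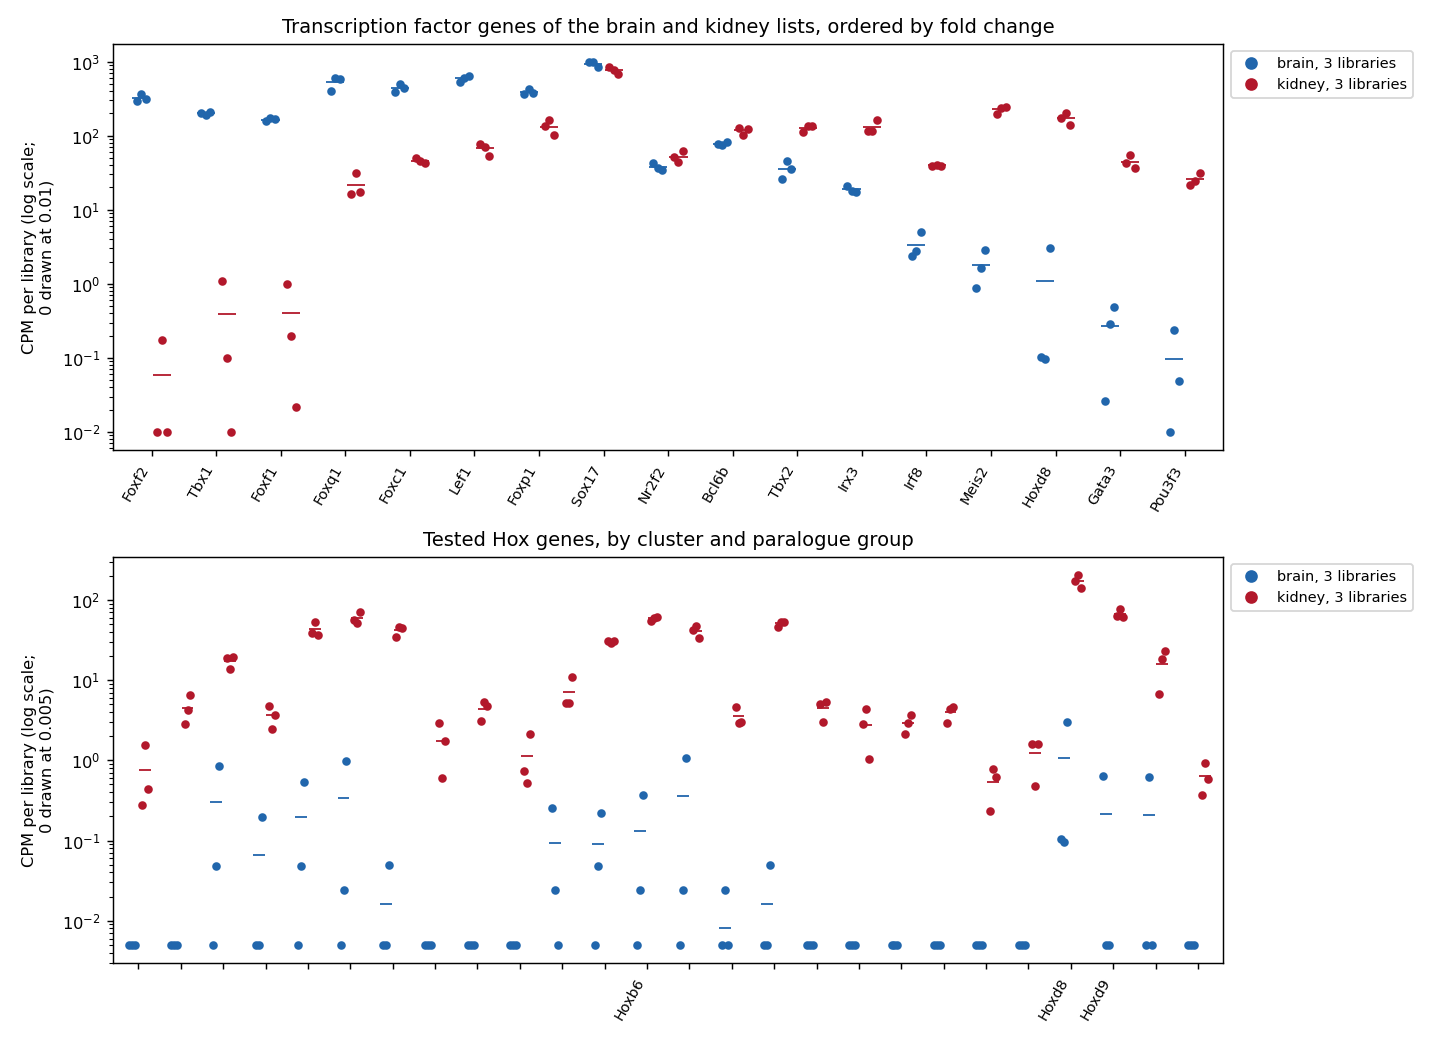
CPM per library (log axis) for the transcription factors of the brain and kidney lists with values in the text (upper panel, 0 drawn at 0.01), and for the 26 Hox genes tested (lower panel, 0 drawn at 0.005, with names on the Hox genes of the text). The Hox points of brain sit at or near 0, while the kidney points reach 202 CPM for Hoxd8.

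Endothelial genes of the glomerulus were higher in kidney for the most part. Of 19 tested, 13 were higher in kidney and 1 in brain, with a median log2 difference of -3.17. Ehd3, a membrane trafficking ATPase of glomerular capillaries, was at 75.3, 48.7 and 77.03 CPM in brain and 982, 889 and 920.2 CPM in kidney (log2 difference -3.80, SE 0.21, adjusted p = 8.03e-05). Igfbp5, which binds insulin-like growth factors, was at 7.42, 5.72 and 24.7 CPM in brain and 1506, 1506 and 1638 CPM in kidney (log2 difference -6.94, SE 0.67, adjusted p = 0.000636). Igfbp3, of the same family, was at 477, 369 and 422 CPM in brain and 3071, 2693 and 2578 CPM in kidney (log2 difference -2.72, SE 0.14, adjusted p = 6.66e-05). Pi16 was at 44.2, 25.997 and 19.2 CPM in brain and 299, 301 and 206 CPM in kidney (log2 difference -3.17, SE 0.35, adjusted p = 0.00112). For each of these the lowest kidney library exceeded the highest brain library. Tspan7 was at 21.1, 15.01 and 24.4 CPM in brain and 222, 276 and 206 CPM in kidney (log2 difference -3.54, SE 0.24, adjusted p = 0.000147), below its heart level of 1485 CPM. The gene higher in brain was Ptprb, the phosphatase that restrains the Tie2 receptor, at 1039, 815 and 1264 CPM in brain and 548, 436 and 386 CPM in kidney (log2 difference 1.19, SE 0.21, adjusted p = 0.00693).

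Genes of vasa recta and peritubular capillaries showed the same direction. Of 21 tested, 17 were higher in kidney and 2 in brain, with a median log2 difference of -3.22. Aqp1, the water channel of the descending vasa recta and of the proximal tubule, was at 7.63, 11.4 and 31.4 CPM in brain and 4485, 3148 and 2894 CPM in kidney (log2 difference -7.71, SE 0.67, adjusted p = 0.000414). Its level in heart, 4747 CPM, was of the same order as in kidney, and the brain level was far below both. Slc14a1, the urea transporter UT-B of the descending vasa recta, was at 0, 0.168 and 4.10 CPM in brain and 830.3, 598 and 392 CPM in kidney (log2 difference -8.73, SE 1.48, adjusted p = 0.00632), against 2.11 CPM in heart. Esm1, endocan, was at 25.5, 48.7 and 33.4 CPM in brain and 664, 645 and 790.4 CPM in kidney (log2 difference -4.29, SE 0.28, adjusted p = 0.000126), and Cryab, a small heat shock protein of the medulla, at 22.96, 12.6 and 14.5 CPM in brain and 199, 203 and 142 CPM in kidney (log2 difference -3.44, SE 0.29, adjusted p = 0.000359). Slco3a1, Npr3 and Apln had log2 differences of -2.88, -4.71 and -3.04. Brain library 3 was the highest brain library for Aqp1 and Slc14a1. The members higher in brain were Ltbp4, a binding protein of latent TGF-beta, at 2727, 2888 and 3144 CPM in brain and 1059, 1356 and 1009 CPM in kidney (log2 difference 1.36, SE 0.14, adjusted p = 0.000973), and Fxyd5 (log2 difference 1.25, SE 0.22, adjusted p = 0.00802).

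Ligands and receptors of vessel growth differed by member. Of 20 genes of VEGF and angiopoietin signalling, 7 were higher in kidney, 3 in brain and the rest were not called, with a median log2 difference of -0.68. Among ligands, Vegfa was at 33.4, 37.9 and 33.8 CPM in brain and 192, 213 and 249.8 CPM in kidney (log2 difference -2.64, SE 0.15, adjusted p = 9.40e-05) and Vegfb at 6.78, 10.8 and 10.7 CPM in brain and 43.8, 44.8 and 46.7 CPM in kidney (log2 difference -2.26, SE 0.23, adjusted p = 0.000882), while Pdgfb, the ligand that recruits pericytes, was higher in brain, at 256, 247 and 253 CPM in brain and 133, 139 and 95.9 CPM in kidney (log2 difference 1.04, SE 0.17, adjusted p = 0.0051). The organs did not overlap for these 3 genes. Among receptors, Nrp1, a co-receptor of VEGF, was at 431, 670.02 and 665 CPM in brain and 1225, 1336 and 1201 CPM in kidney (log2 difference -1.09, SE 0.19, adjusted p = 0.00665) and Aplnr, the receptor of apelin, at 20.4, 40.8 and 17.8 CPM in brain and 271, 214 and 215 CPM in kidney (log2 difference -3.15, SE 0.35, adjusted p = 0.00116). Kdr was higher on average in kidney, at 1048, 1065 and 1658 CPM in brain and 1932, 1819.5 and 1917 CPM in kidney, and was not called (adjusted p = 0.0736). Without brain library 3, the highest of the brain libraries, it was called (log2 -0.86, adjusted p = 0.00414). Vegfa is also made by tubule cells and podocytes, whose part was not tested.

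In the Notch pathway 5 of 16 genes were higher in brain and 0 in kidney, with a median log2 difference of 0.49; leaving out kidney library 1, 2 or 3 left 3, 2 and 3 genes called. Hey1, a target of Notch, was at 259, 176 and 144 CPM in brain and 43.7, 32.1 and 41.8 CPM in kidney (log2 difference 2.30, SE 0.26, adjusted p = 0.00119). Jag2, a ligand, was at 582, 442 and 479 CPM in brain and 180.02, 198 and 109 CPM in kidney (log2 difference 1.63, SE 0.24, adjusted p = 0.00395). The organs did not overlap for either. Dll4, the ligand of arterial and sprouting cells, was at 294 ± 32.3 CPM in brain and 319 ± 41.7 CPM in kidney and was not called (adjusted p = 0.649).

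More BMP and TGF-beta genes were called higher in brain than in kidney, 8 against 4 of 23 tested. The median log2 difference was 0.19, and the count higher in brain was 5 without kidney library 2. Acvrl1, the endothelial receptor ALK1, was at 1224, 1189.6 and 1052 CPM in brain and 401, 342 and 247 CPM in kidney (log2 difference 1.81, SE 0.19, adjusted p = 0.00103). Bmpr2, its type II partner, was at 209, 180.01 and 159 CPM in brain and 58.4, 62.6 and 68.4 CPM in kidney (log2 difference 1.53, SE 0.15, adjusted p = 0.00071), and Acvr1 at 65.2, 83.7 and 79.98 CPM in brain and 17.7, 16.7 and 17.1 CPM in kidney (log2 difference 2.15, SE 0.16, adjusted p = 0.000232). Bmpr1a went the other way, at 11.8, 9.28 and 10.1 CPM in brain and 75.5, 44.9 and 49.6 CPM in kidney (log2 difference -2.45, SE 0.26, adjusted p = 0.000919). No libraries overlapped between the organs for these 4 receptors. Id3, a direct target of BMP signals, was at 1312, 1088 and 971 CPM in brain and 593, 503 and 449 CPM in kidney (log2 difference 1.12, SE 0.16, adjusted p = 0.00351). Eng, endoglin, the co-receptor of ALK1, was at 1115 ± 111 CPM in brain and 978 ± 56.3 CPM in kidney and was not called (adjusted p = 0.323). Among ligands, Tgfb2 was higher in brain, at 86.8, 202 and 187 CPM in brain and 18.9, 45.3 and 40.02 CPM in kidney (log2 difference 2.19, SE 0.44, adjusted p = 0.0118).

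Regulators of vascular tone were split between the organs, 7 higher in brain and 6 in kidney of 23 tested, with a median log2 difference of -0.12. Nos3, which makes nitric oxide, was at 660.4, 533 and 572 CPM in brain and 212, 227 and 196 CPM in kidney (log2 difference 1.48, SE 0.13, adjusted p = 0.000469). Edn1, endothelin-1, a constrictor peptide, was at 599.8, 366 and 417 CPM in brain and 154, 146 and 89.1 CPM in kidney (log2 difference 1.83, SE 0.28, adjusted p = 0.00412), and Ednrb, the endothelin receptor that clears it, at 34.8, 41.4 and 53.2 CPM in brain and 743, 465 and 583 CPM in kidney (log2 difference -3.79, SE 0.25, adjusted p = 0.000145). Ligand and receptor had opposite directions, with no overlap between the organs. Adrenomedullin, encoded by Adm, and its receptor parts gave a similar contrast: Adm was at 192, 255 and 277 CPM in brain and 58.5, 48.5 and 44.5 CPM in kidney (log2 difference 2.26, SE 0.19, adjusted p = 0.000392) and Calcrl at 142, 209.8 and 249.6 CPM in brain and 567, 498 and 409 CPM in kidney (log2 difference -1.29, SE 0.24, adjusted p = 0.00832). The accessory proteins of Calcrl differed in direction, Ramp2 at 741, 661 and 543 CPM in brain and 256, 272 and 176 CPM in kidney (log2 difference 1.47, SE 0.21, adjusted p = 0.00311) and Ramp3 at 23.7, 30.5 and 26.03 CPM in brain and 167, 151 and 125 CPM in kidney (log2 difference -2.47, SE 0.18, adjusted p = 0.000194). Prostaglandin enzymes did too, with Ptgs1 at 19.4, 20.3 and 41.2 CPM in brain and 188, 173 and 208 CPM in kidney (log2 difference -2.81, SE 0.32, adjusted p = 0.00135) and Ptgis, which makes prostacyclin, at 22.1, 18.7 and 24.5 CPM in brain and 0.952, 2.28 and 1.64 CPM in kidney (log2 difference 3.74, SE 0.40, adjusted p = 0.000976). Klf4, a factor induced by flow, was higher in brain (log2 difference 1.07, SE 0.15, adjusted p = 0.00305), while Klf2 was not called (adjusted p = 0.132).

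Clotting genes were 8 higher in kidney and 3 in brain of 19 tested, with a median log2 difference of -1.08, and 5 of the former were called with the lane term. F2r, the thrombin receptor PAR1, was at 25.7, 26.1 and 39.1 CPM in brain and 679.98, 697 and 611 CPM in kidney (log2 difference -4.45, SE 0.22, adjusted p = 6.22e-05). F8, factor VIII, was at 0, 0.0721 and 3.04 CPM in brain and 100.002, 57.02 and 64.1 CPM in kidney (log2 difference -6.14, SE 1.42, adjusted p = 0.021), the reverse of its carrier Vwf; the F8 call was lost without kidney library 1, 2 or 3 (adjusted p = 0.0606 to 0.0657) and with the lane term (adjusted p = 0.364). Brain library 3 was the highest brain library for F8. Plau, urokinase, was listed at 0 in brain and at 8.13 ± 2.10 CPM in kidney. S100a10, a subunit of a plasminogen receptor, was at 30.9, 22.8 and 21.1 CPM in brain and 137, 129.9 and 84.7 CPM in kidney (log2 difference -2.23, SE 0.25, adjusted p = 0.0012). Thbd, thrombomodulin, was at 749 ± 183 CPM in brain and 906 ± 256 CPM in kidney and was not called (adjusted p = 0.521).

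Leukocyte adhesion genes were 8 higher in brain and 1 in kidney of 17 tested, with a median log2 difference of 0.69. Cxcl12, a chemokine that holds leukocytes at the vessel wall, was at 2319, 2131 and 2139 CPM in brain and 107, 120.3 and 58.4 CPM in kidney (log2 difference 4.53, SE 0.30, adjusted p = 0.000138), and Cxcl1 at 159, 162 and 154 CPM in brain and 29.2, 39.5 and 21.8 CPM in kidney (log2 difference 2.39, SE 0.23, adjusted p = 0.000656). Ackr1, the chemokine scavenger of venules, was at 178, 28.2 and 23.5 CPM in brain and 0, 0.175 and 0.24 CPM in kidney (log2 difference 9.07, SE 1.31, adjusted p = 0.0034). Brain library 1 held most of the Ackr1 signal, and all 3 brain libraries were above the kidney libraries. Icam1 and Vcam1 are ligands of leukocyte integrins. Icam1 was at 942 ± 128 CPM in brain and 585 ± 70.4 CPM in kidney, and its call was lost without brain library 2 or 3 or kidney library 1 or 3 (adjusted p = 0.0511 to 0.0616), with all 6 groups fitted together (adjusted p = 0.113) and with the lane term (adjusted p = 0.341). Vcam1 was at 379 ± 158 CPM in brain and 172 ± 45.3 CPM in kidney, and its call was lost without brain library 1 or 2 or kidney library 2 or 3 (adjusted p = 0.0542 to 0.148), with all 6 groups (adjusted p = 0.0565) and with the lane term (adjusted p = 0.283).

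Antigen presentation genes were called in the other direction. Of 17 tested, 11 were higher in kidney and 0 in brain, with a median log2 difference of -0.93. Of class I genes, H2-K1 was at 623, 670.1 and 662 CPM in brain and 1064, 1303 and 1232 CPM in kidney (log2 difference -0.88, SE 0.12, adjusted p = 0.00236) and H2-D1 at 1631, 1833 and 1325 CPM in brain and 2855, 2756 and 2608 CPM in kidney (log2 difference -0.78, SE 0.14, adjusted p = 0.00749). H2-Q6 and H2-Q7 are close copies that may share reads. H2-Q6 was at 25.9 ± 7.57 CPM in brain and 208 ± 17.03 CPM in kidney, and H2-Q7 at 9.01 ± 1.18 CPM in brain and 85.1 ± 9.02 CPM in kidney. Of class II genes, H2-Ab1 was at 4.74, 4.52 and 4.44 CPM in brain and 72.4, 82.9 and 78.5 CPM in kidney (log2 difference -4.09, SE 0.16, adjusted p = 4.59e-05) and H2-Aa at 0.876, 0.722 and 3.09 CPM in brain and 33.4, 35.4 and 26.1 CPM in kidney (log2 difference -4.33, SE 0.62, adjusted p = 0.00333). The kidney libraries were above the brain libraries in all of these. Ptprc, the leukocyte gene, was at 3.91 to 11.4 CPM in kidney and 0 to 7.24 CPM in brain beside them, and its part was not tested.

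Matrix genes divided by chain. Of 26 tested, 9 were higher in kidney and 4 in brain, with a median log2 difference of -0.27. Col4a3, a type IV collagen chain of the glomerular and tubular basement membranes, was at 8.12, 9.16 and 5.97 CPM in brain and 87.9, 102 and 112 CPM in kidney (log2 difference -3.70, SE 0.22, adjusted p = 0.000104). Col4a4, its partner chain, was at 0, 1.76 and 0.54 CPM in brain and 32.7, 37.1 and 68.1 CPM in kidney (log2 difference -5.89, SE 1.14, adjusted p = 0.0105). Lamb1, a laminin chain, was at 6.11, 6.83 and 19.6 CPM in brain and 138, 142 and 131 CPM in kidney (log2 difference -3.66, SE 0.48, adjusted p = 0.00234), Col18a1 at 166, 81.7 and 99.2 CPM in brain and 565, 606 and 380.1 CPM in kidney (log2 difference -2.16, SE 0.31, adjusted p = 0.00352) and Fbln5, an elastic fibre protein, at 218, 101 and 126 CPM in brain and 656, 673 and 449.9 CPM in kidney (log2 difference -1.998, SE 0.32, adjusted p = 0.00507). Genes higher in brain included receptors and a proteoglycan. Itga6, an integrin chain for laminin, was at 548, 501 and 677 CPM in brain and 138, 172 and 170.1 CPM in kidney (log2 difference 1.85, SE 0.17, adjusted p = 0.000478). Itga1, one for collagen, was at 241, 185 and 214 CPM in brain and 94.7, 79.8 and 99.9 CPM in kidney (log2 difference 1.22, SE 0.16, adjusted p = 0.00209), and Agrn, agrin, at 263, 289.9 and 392 CPM in brain and 172, 131 and 129 CPM in kidney (log2 difference 1.13, SE 0.20, adjusted p = 0.00752). None of these overlapped between the organs.

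Arterial genes were called in both directions, and more venous genes were called higher in brain than in kidney. Of 14 arterial genes, 3 were higher in brain and 4 in kidney, with a median log2 difference of 0.08. Gkn3, a marker of brain arteries, was at 107, 162 and 110.4 CPM in brain and 3.62, 5.84 and 2.71 CPM in kidney (log2 difference 4.96, SE 0.36, adjusted p = 0.000216). Gja4, a connexin of arteries, was higher in kidney, at 65.05, 70.3 and 69.8 CPM in brain and 218, 212 and 147 CPM in kidney (log2 difference -1.49, SE 0.18, adjusted p = 0.00167). Efnb2, an arterial ephrin, was also higher in kidney, at 112, 178 and 190.1 CPM in brain and 368, 359 and 381 CPM in kidney (log2 difference -1.21, SE 0.21, adjusted p = 0.00693). Of 13 venous genes, 7 were higher in brain, 4 without kidney library 3 and 4 with the lane term, and 1 in kidney, with a median log2 difference of 1.14. The list summed to 3887, 3376 and 3279 CPM in brain and 1557, 1571 and 1537 CPM in kidney. Slc38a5, Vwf, Ackr1, Icam1 and Vcam1, whose values are given with their functions, are among those higher in brain. Ephb4, the venous ephrin receptor, was the 1 venous gene higher in kidney, at 309, 285 and 273 CPM in brain and 448, 501 and 506 CPM in kidney (log2 difference -0.75, SE 0.12, adjusted p = 0.00435). Nr2f2, the factor that sets venous identity, was not called (adjusted p = 0.142).

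Genes of energy metabolism were called mainly higher in kidney. In oxidative phosphorylation 20 of 21 nuclear genes were higher in kidney and 0 in brain, with a median log2 difference of -1.0. Atp5b, a subunit of ATP synthase, was at 973, 948 and 817 CPM in brain and 2175, 2265 and 2011 CPM in kidney (log2 difference -1.24, SE 0.11, adjusted p = 0.000532), and Sdha, of succinate dehydrogenase, at 354, 396 and 382 CPM in brain and 687, 699 and 727 CPM in kidney (log2 difference -0.90, SE 0.10, adjusted p = 0.00139). The 7 protein genes of the mitochondrial genome that were tested were all higher in kidney, by absolute log2 differences of 1.94 to 2.87. Of these, mt-Cytb was at 1364, 1286 and 1439 CPM in brain and 6230.4, 7723 and 7338 CPM in kidney (log2 difference -2.38, SE 0.12, adjusted p = 6.22e-05); nuclear copies of mitochondrial genes may share such reads. In heart mt-Cytb was at 2006 CPM and Atp5b at 1130.1 CPM. Tubule cells are rich in mitochondria, and their summed genes moved in the same direction, with their part not tested.

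Fatty acid genes were 12 higher in kidney and 2 in brain of 17 tested, with a median log2 difference of -1.60. Cd36, a fatty acid receptor, was at 5.23, 3.01 and 18.7 CPM in brain and 416, 495 and 522 CPM in kidney (log2 difference -5.73, SE 0.74, adjusted p = 0.00211). Fabp4, a fatty acid binding protein of capillaries, was at 9.15, 2.48 and 11.9 CPM in brain and 885, 660.5 and 621 CPM in kidney (log2 difference -6.52, SE 0.63, adjusted p = 0.000646). Gpihbp1, which holds lipoprotein lipase on capillaries, was at 8.22, 8.22 and 16.4 CPM in brain and 205, 234 and 233 CPM in kidney (log2 difference -4.35, SE 0.33, adjusted p = 0.000234), Lpl at 9.05, 3.46 and 9.90 CPM in brain and 297, 307 and 298 CPM in kidney (log2 difference -5.33, SE 0.42, adjusted p = 0.000293) and Pparg, the factor that drives several of them, at 5.21, 5.58 and 2.26 CPM in brain and 64.6, 50.5 and 41.1 CPM in kidney (log2 difference -3.58, SE 0.40, adjusted p = 0.0012). All 5 had non-overlapping libraries. The heart levels, scaled separately, were 7255 CPM for Cd36, 3859 for Fabp4, 891 for Gpihbp1, 1218 for Lpl and 214 for Pparg, each above the kidney mean.

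Glucose genes were 10 higher in kidney and 3 in brain of 21 tested, with a median log2 difference of -0.97, although uptake through Slc2a1 and lactate transport through Slc16a1 were on the brain side. Ldhb, the lactate dehydrogenase subunit of oxidative tissues, was at 16.4, 23.7 and 20.6 CPM in brain and 705, 673 and 582 CPM in kidney (log2 difference -5.01, SE 0.20, adjusted p = 4.59e-05). Ldha, the other subunit, was at 575, 588 and 546 CPM in brain and 444, 471 and 413 CPM in kidney and was not called (adjusted p = 0.0522). Aldoa, an enzyme of glycolysis, was at 540.4, 560.4 and 483 CPM in brain and 1175, 1215 and 1125 CPM in kidney (log2 difference -1.15, SE 0.11, adjusted p = 0.000593). Hk1, which starts glycolysis, was at 234, 203 and 267 CPM in brain and 538, 471 and 443 CPM in kidney (log2 difference -1.05, SE 0.15, adjusted p = 0.00319). In heart Ldhb was at 35.5 CPM.

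**Figure D5:**
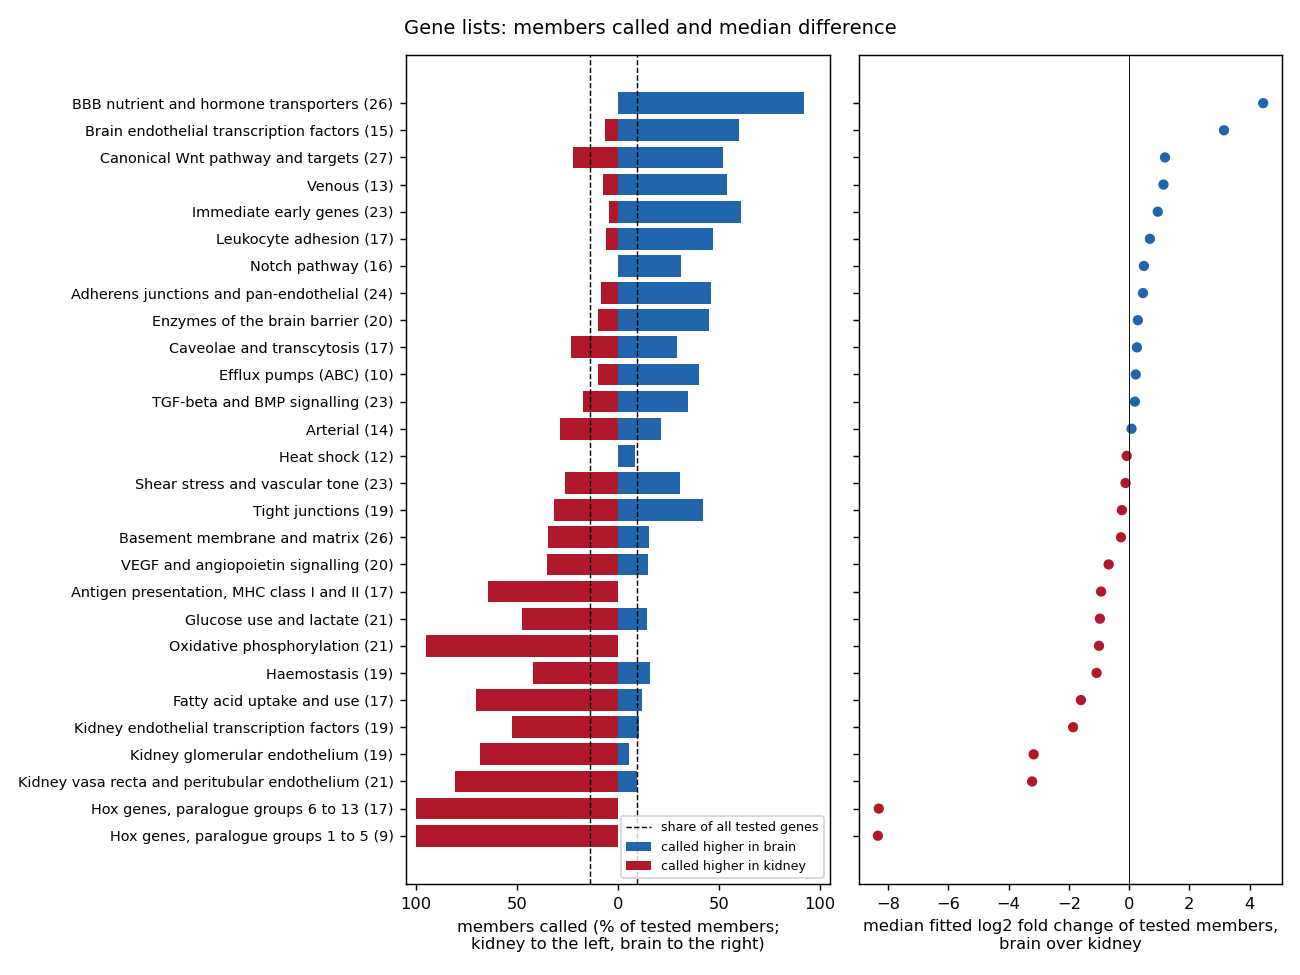
Share of each list's tested genes called higher in brain (bars to the right) and in kidney (bars to the left), in percent, for the lists of vessel functions and endothelial markers and for the immediate early and heat shock lists, with the median log2 difference of each beside it; dashed lines mark the background of 9.31% and 14.1% of all genes tested. The transporter list has 24 of 26 genes on the brain side and the Hox lists have 9 of 9 and 17 of 17 on the kidney side, while tight junctions, tone and caveolae have genes on both.

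Among all genes, those with the largest differences and a mean of at least 10 CPM included transcription factors and carriers on the brain side. Besides Zic5, Tbx4, Foxf2, Mfsd2a, Slco1c1, Slc38a5 and Bche, they included Atp13a5, Ndnf, Tecrl and Foxl2os. Atp13a5, a transport ATPase (chr16:29231851-29378732 in GRCm38), was at 36.2, 18.3 and 72.9 CPM in brain and 0, 0 and 0 CPM in kidney, at least 1823-fold higher in brain. Ndnf, a secreted neurotrophic factor, was at 62.03, 241 and 185 CPM in brain and 0, 0.0501 and 0 CPM in kidney, from 2 counts in kidney. Tecrl was at 20.5, 17.4 and 23.7 CPM in brain and 0, 0 and 0 CPM in kidney, at least 882-fold higher in brain. Foxl2os lies beside and opposite to Foxl2 on chromosome 9, and since no strand setting is given its reads and those of Foxl2 cannot be told apart. Bche, butyrylcholinesterase, was at 42.99, 90.8 and 64.4 CPM in brain and 0, 0.0501 and 0 CPM in kidney, also from 2 counts in kidney.

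On the kidney side the largest differences were in genes with no count in any brain library. Ren1, renin, the product of juxtaglomerular cells (chr1:133350510-133360325), was at 0, 0 and 0 CPM in brain and 194, 94.96 and 128 CPM in kidney, at least 5606-fold higher in kidney. Casr, the calcium-sensing receptor of the thick ascending limb (chr16:36493696-36562141), was at 0, 0 and 0 CPM in brain and 91.8, 74.5 and 76.8 CPM in kidney, at least 3272-fold higher. Slc34a1, the phosphate transporter of the proximal tubule, was at 0, 0 and 0 CPM in brain and 37.7, 32.4 and 37.4 CPM in kidney, at least 1446-fold higher. Itgb6, an integrin chain of epithelia, was at 0, 0 and 0 CPM in brain and 74.1, 53.6 and 118 CPM in kidney, at least 3311-fold higher. Each of these 4 is known from cells other than endothelium, and none had a mean above 0.239 CPM in heart. Pcsk6, a proprotein convertase, was at 0, 0 and 0 CPM in brain and 51.5, 64.8 and 50.004 CPM in kidney, at least 2238-fold higher, and was at 27.7 CPM in heart. The others by the same rule were Slc16a5, Cdkl1, Blnk, Mfsd4b1, Prom2, Mpzl2 and Baiap2l2, with kidney means of 33.5 to 60.2 CPM. Prom2 was not called with the lane term (adjusted p = 0.18).

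The most abundant genes with at least 4-fold differences named further members. On the brain side they included Itm2a, a membrane protein, at 6106, 9766 and 8367 CPM in brain and 15.4, 31.3 and 16.7 CPM in kidney (log2 difference 8.58, SE 0.42, adjusted p = 6.22e-05), and Pltp, phospholipid transfer protein, at 5371, 6646 and 5596 CPM in brain and 232, 316 and 215 CPM in kidney (log2 difference 4.53, SE 0.20, adjusted p = 5.03e-05). Sparcl1, a matricellular protein, was at 3231, 3091 and 3420.03 CPM in brain and 473, 499 and 363 CPM in kidney (log2 difference 2.87, SE 0.15, adjusted p = 6.77e-05) and Sgms1, which makes sphingomyelin, at 3117, 2226 and 2424 CPM in brain and 362, 208 and 262 CPM in kidney (log2 difference 3.22, SE 0.25, adjusted p = 0.000272). Tsc22d1, a transcription regulator, was at 4809, 4376 and 4314 CPM in brain and 1060.4, 1112 and 1179.6 CPM in kidney (log2 difference 2.01, SE 0.10, adjusted p = 6.22e-05). In none of these did the organs overlap. On the kidney side they included Plpp3, a lipid phosphatase, at 138, 302 and 332 CPM in brain and 1743, 1931 and 1979 CPM in kidney (log2 difference -2.87, SE 0.33, adjusted p = 0.00134). Aqp2, the water channel of the collecting duct, was at 6.005, 2.69 and 11.4 CPM in brain and 1699, 2255 and 1434 CPM in kidney, and Egf, made by the distal tubule, at 3.14, 0.746 and 20.2 CPM in brain and 2666, 2950.2 and 3357 CPM in kidney; neither was called with the lane term (adjusted p = 0.463 and 0.136). Slc12a1, the salt carrier of the thick ascending limb, was at 0.0258, 3.58 and 53.6 CPM in brain and 2739, 2668 and 2937 CPM in kidney, and its call was lost without brain library 2 or kidney library 1, 2 or 3 (adjusted p = 0.0678 to 0.0878) and with the lane term (adjusted p = 0.119). The mitochondrial genes mt-Co1 and mt-Nd1 also belonged to this set.

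Traces of one organ's genes appeared in the libraries of the other in uneven amounts. Of the 30 genes higher in brain with the largest differences and at least 100 CPM, 13 had no count in kidney library 1, 0 in library 2 and 9 in library 3. Their median level was 0.0723%, 0.292% and 0.185% of the brain level. Of the 30 such genes of kidney, 23 had no count in brain library 1, 2 in library 2 and 12 in library 3, and the highest of the brain libraries was library 3 for 18 of them. Brain library 2 was the highest for 12. Library 2 of each organ, with the fewest genes at no count, was on lane 3, the only lane with both organs. The part of the shared lane in these traces was not tested. The members were chosen from these libraries, so these are descriptions. Leaving out brain library 1, 2 or 3 gave log2 differences of -7.46, -7.42 and -10.82 for Umod, from -7.94. The same 3 fits gave -8.17, -8.21 and -12.74 for Slc14a1, from -8.73. Leaving out kidney library 1, 2 or 3 gave 11.59, 17.60 and 11.59 for Slco1c1, from 12.18. Among the fits given here, the difference widened without brain library 3 for the first 2 genes and without kidney library 2 for Slco1c1. It narrowed in the rest of those given.

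The difference at 3 months was set against that at 24 months in a fit of all 6 groups. In that fit 3700 genes were called at 3 months and 3406 at 24 months, and 2623 were called at both ages in the same direction, which was 70.9% of the former and 77.0% of the latter. Of the 3700, 3645 had the same sign at 24 months. A test of the change in the difference called 9 of 18369 genes (0.049%), and 1160 had an unadjusted p under 0.05. In DESeq2 the count was 212. Serpine2, a protease inhibitor, was higher in kidney at both ages, by less at 3 months (log2 difference -1.10) than at 24 months (-3.64). H2-Q7, an MHC class I gene, was higher in kidney by more at 3 months (-3.26) than at 24 months (-1.16). All 9 are given with their values per library among the results for a closer look.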

How the data were processed

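RNA of sorted endothelial cells was measured by bulk sequencing, with libraries made by the SMART-Seq v4 and Ovation kits per the labels' protocols. The authors deposited raw read counts per Ensembl gene, made with TopHat2 and HTSeq on GRCm38 per the submitters' processing notes; versions, annotation release and strand setting are not given in the sources used here. Rows that name no gene were left out: no feature held 3.45 to 6.97% and not uniquely aligned reads 19.93 to 24.64% of the rows' total per library. Of 46078 genes, 45229 (98.16%) had a symbol in GENCODE M21. Floors cover counting error only.

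The 3 brain and 3 kidney libraries were fitted with edgeR 4.0.16 (R 4.3.3): filterByExpr with a minimum count of 10, TMM, quasi-likelihood test, Benjamini-Hochberg adjustment, threshold 0.05. The ages were compared by an interaction term over all 6 groups. The script was tested on simulated counts with 100 genes changed 2-fold and 100 changed 4-fold. There edgeR called 6% of the former and 43% of the latter, so a gene not called may still differ. Of its 50 calls, 2% were false, against 43.8% of 178 calls by DESeq2 on the same simulated counts. The simulation changed a far smaller part of its 15795 genes than the 23.4% called here, and none by more than 4-fold. The shares recovered and the shares false therefore do not carry over to the calls above. Alternatives were DESeq2 1.42.0, its size factors within edgeR, TMM without other cells' markers, no filter, all 6 groups, a replicate block, a lane term and each library left out. Heart levels come from the fit of 6 groups and are not tested here. Libraries of one group differed by more than sampling noise. The labels do not say what a replicate number shares, so the numbers were not taken as pairs. Deviations from the group mean correlated at 0.069, 0.059 and 0.045 for same-numbered libraries of the 2 organs. For other pairs they correlated at -0.062 to 0.005.

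Members and gene lists were chosen with earlier results of these data known. The naming rule took 12 genes in each direction with the largest differences at a mean of at least 10 CPM, 12 in each direction with the most counts at 4-fold or more, up to 6 members per list with the most counts, and Pecam1, Cdh5, Ptprc and Pdpn; other list members named were chosen after their values were seen. Some genes that the rule names are not reported here. Promoter sequences come from RefSeq.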

Additional observations from a re-analysis of the deposited data

Results flagged for a closer look

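The difference between brain and kidney endothelium at 3 months was compared with that at 24 months by the interaction term of edgeR's quasi-likelihood test, in the fit of all 6 groups. The values below are the log2 difference at 3 months minus that at 24 months for the 9 genes with an adjusted p under 0.05 (0.049% of 18369 tested). CPM are those of this fit, in the order of the deposited columns within each group.

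Serpine2, a secreted protease inhibitor, was at 134, 98.9 and 104 CPM in brain and 290.3, 203 and 228 CPM in kidney at 3 months. At 24 months Serpine2 was at 43.2, 58.7 and 51.5 CPM in brain and 752, 622 and 544 CPM in kidney. The change in the log2 difference was 2.54 (SE 0.29, adjusted p = 0.00434). It was higher in kidney at both ages, and no library of one organ overlapped the other at either age. H2-Q7, an MHC class I gene with close copies, was at 7.61, 9.87 and 9.27 CPM in brain and 77.6, 95.7 and 82.8 CPM in kidney at 3 months. At 24 months H2-Q7 was at 63.0, 57.4 and 53.2 CPM in brain and 129.9, 127 and 132 CPM in kidney. Its log2 difference changed by -2.10 (SE 0.25, adjusted p = 0.00434). The brain libraries of 24 months lay above all brain libraries of 3 months.

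Scamp5, a secretory carrier membrane protein, was at 1.12, 4.18 and 7.35 CPM in brain and 22.6, 33.6 and 16.9 CPM in kidney at 3 months. At 24 months Scamp5 was at 0.0256, 0 and 0.0182 CPM in brain and 13.8, 15.7 and 29.5 CPM in kidney. The log2 differences of the ages were apart by 7.58 (SE 1.01, adjusted p = 0.00775). Brain libraries of 24 months were near 0. Prr5 was at 9.37, 6.23 and 5.79 CPM in brain and 4.17, 6.15 and 3.87 CPM in kidney at 3 months. At 24 months Prr5 was at 1.05, 0.459 and 0.894 CPM in brain and 7.14, 4.84 and 6.20 CPM in kidney. Between the ages the log2 difference moved by 3.50 (SE 0.54, adjusted p = 0.0266). The brain libraries of 3 months lay above those of 24 months. Wdr35, a part of the transport machinery of cilia, was at 0, 0 and 0.0243 CPM in brain and 21.4, 29.7 and 27.2 CPM in kidney at 3 months. At 24 months Wdr35 was at 0.461, 1.75 and 4.25 CPM in brain and 27.6, 18.2 and 24.7 CPM in kidney. The change in the log2 difference was -7.79 (SE 1.26, adjusted p = 0.0409). Kidney levels overlapped between the ages, and brain levels were near 0 at 3 months.

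Chst1, a sulfotransferase of keratan sulfate, was at 1.04, 2.47 and 1.70 CPM in brain and 1.62, 4.57 and 1.93 CPM in kidney at 3 months. At 24 months Chst1 was at 0, 0 and 0 CPM in brain and 3.40, 6.10 and 2.50 CPM in kidney. Its log2 difference changed by 9.92 (SE 1.16, adjusted p = 0.00549). No brain library of 24 months had a count, so the size of the fitted value depends on the prior count. Tmigd1 was at 3.08, 2.31 and 1.85 CPM in brain and 4.96, 2.77 and 3.14 CPM in kidney at 3 months. At 24 months Tmigd1 was at 0.0256, 0.027 and 0 CPM in brain and 4.67, 2.67 and 9.85 CPM in kidney. The log2 differences of the ages were apart by 7.67 (SE 0.96, adjusted p = 0.00549). Brain levels were near 0 at 24 months.

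Pidd1, an adaptor in responses to DNA damage, was at 0, 0 and 0 CPM in brain and 3.01, 10.2 and 2.48 CPM in kidney at 3 months. At 24 months Pidd1 was at 3.00, 0.945 and 3.85 CPM in brain and 4.43, 1.63 and 3.46 CPM in kidney. Between the ages the log2 difference moved by -10.65 (SE 1.52, adjusted p = 0.0266). No brain library of 3 months had a count. Lrrc36 was at 0.102, 1.26 and 1.56 CPM in brain and 0, 0 and 0 CPM in kidney at 3 months. At 24 months Lrrc36 was at 0, 0 and 0 CPM in brain and 0.0976, 0.988 and 0.109 CPM in kidney. The change in the log2 difference was 15.74 (SE 2.24, adjusted p = 0.0483). Kidney at 3 months and brain at 24 months had no count, so the fitted size is not a bound, and every level was under 2 CPM.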

How the results depend on the processing

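The counts of genes called between brain and kidney at 3 months (3693 in all, 1471 higher in brain and 2222 higher in kidney) stayed within 1.5 times of these values with DESeq2's size factors (3690), TMM without the markers of other cells (3691), no filter on low counts (3375), DESeq2 (5144, of which 2023 and 3121) and all 6 groups fitted together (3700). Leaving out 1 library at a time gave 2631 to 3257 genes in all, 1064 to 1158 higher in brain and 1567 to 2127 higher in kidney. With the lane term, in a fit of 5 groups chosen after seeing the data, the counts fell to 2102, 972 and 1130; the cause was not tested. A fit of all 6 groups with lane was not run, because the columns of the kidney libraries of 24 months could not be tied to a lane. The test of the age difference called 9 genes, 9 with DESeq2's size factors, 10 with no filter, 212 with DESeq2 and 5 to 16 when 1 library was left out; the replicate block was not run for it.

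With the replicate number as a block the counts at 3 months were 2847, 1224 and 1623. The labels do not say what same-numbered libraries share, beyond lane 3 for the 2 libraries numbered 2. Deviations of same-numbered libraries correlated at 0.069, 0.059 and 0.045. Each library correlated best with its own number, which is a hint from the data and not from the design. Among counts of listed genes, the block moved Hox groups 1 to 5 from 9 to 4, Hox groups 6 to 13 from 17 to 11 and Notch from 5 to 2. Among the smaller counts higher in brain it moved microglia from 2 to 0, choroid plexus from 2 to 1, fibroblast from 1 to 0 and heat shock from 1 to 3, and oligodendrocyte genes higher in kidney from 2 to 1. Of the genes named, Ccnd1, Sp5 and Ntsr2 lost their calls under the block (edgeR adjusted p = 0.095, 0.0501 and 0.0807). Fzd4, Klf2 and Egr1 gained calls under it (edgeR adjusted p = 0.0208, 0.0111 and 0.0499). Fzd4, Kdr and Ldha gained calls with DESeq2 (DESeq2 adjusted p = 0.0218, 0.014 and 0.00235).

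Levels under about 1 CPM rest on few reads and set the size of the largest fitted differences, so values are given beside them.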

Other observations

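Immediate early genes, which cells switch on within minutes of a stimulus, were high in both organs and higher in brain for many members. Of 23 tested, 14 were called higher in brain and 1 in kidney, with a median log2 difference of 0.95 beside -0.032 for all genes. Nr4a1, an orphan nuclear receptor, was at 2162, 2818 and 2888 CPM in brain and 607, 1182 and 884 CPM in kidney (log2 difference 1.56, SE 0.26, adjusted p = 0.00556). Ccn1, a matrix signal protein, was at 2877, 3292 and 3361 CPM in brain and 683, 982 and 847 CPM in kidney (log2 difference 1.92, SE 0.16, adjusted p = 0.000339), and Ier3, a regulator of survival, at 1314, 1679 and 1369 CPM in brain and 384, 571 and 491 CPM in kidney (log2 difference 1.59, SE 0.18, adjusted p = 0.00131). The organs did not overlap for these 3 genes. Junb, a part of the factor AP-1, was at 4742, 5773 and 5359 CPM in brain and 2403, 2895 and 2929 CPM in kidney (log2 difference 0.95, SE 0.12, adjusted p = 0.00226). Egr1, a zinc finger factor, was at 7233 ± 889 CPM in brain and 5269.8 ± 1039.5 CPM in kidney and was not called (adjusted p = 0.105). Myc, a growth regulator, was the member higher in kidney, at 21.004, 11.04 and 12.7 CPM in brain and 38.6, 53.6 and 47.9 CPM in kidney (log2 difference -1.65, SE 0.29, adjusted p = 0.00748). In heart, which was scaled separately and not tested here, Nr4a1 was at 1210.1 CPM, Ccn1 at 1787 and Junb at 4711.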
